A study of Mus musculus with 7 samples.

Results

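Chromatin accessibility around the 3 genes of the ghrelin system, *Ghsr*, *Ghrl* and *Mboat4*, was examined in mouse islet alpha, beta and delta cells. The genes were chosen for their role and are 3 of the 21938 protein-coding genes of the annotation. Every ATAC-Seq peak that overlapped the body of one of these genes, or the 20 kb on either side of it, was taken. This gave 73 of the 1190565 distinct peaks in the 7 libraries, with 26 around *Ghsr*, 19 around *Ghrl* and 28 around *Mboat4*.

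Ghrelin is a peptide hormone of the stomach and of the rare epsilon cells of the islet. It is active at its receptor only once an octanoyl group has been attached to it by ghrelin O-acyltransferase, the product of *Mboat4*. The receptor encoded by *Ghsr* is coupled to Gq and phospholipase C, and in the mouse islet it is known as a receptor of delta cells, through which ghrelin promotes somatostatin release.

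In ATAC-Seq, Tn5 transposase inserts sequencing adapters wherever DNA is accessible. The 3 cell types were sorted by FACS out of islets of healthy triple transgenic mice, which carried mIns1-H2b-mCherry and Rosa-LSL-YFP together with either Gcg-Cre or Sst-Cre. The Ins1 promoter of the first transgene marks beta cells, and Cre from the Gcg or the Sst locus turns on YFP in alpha or in delta cells. Cells positive for both reporters were gated out, per the study's description of the sort. Animals were pooled by sex, no age is given in the labels, and every group shares the reporter background. Per the study, cell types were compared within the same animals, so beta libraries may share animals with alpha or delta libraries. Which libraries share a pool is not given. There were 2 alpha (female and male), 3 beta (male, female and male) and 2 delta libraries (female and male), each labelled a biological replicate, and no library was made from epsilon cells or from stomach.

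The lists held between 75860 and 158066 distinct peaks, except that of beta 1, which held 518503, and 73.0% of these shared a single −log10 p of 2.26. Strong peaks, as those with a −log10 q of 2 or more are called below, numbered 49047 and 52057 in the alpha, 25903 to 38058 in the beta and 41683 and 47042 in the delta libraries. The deposited name of each beta list mentions alpha or delta cells whereas its label says beta. The labels were followed, and all beta values depend on this choice. A peak within 1 kb of the annotated 5′ end is called a TSS peak here. In at least 2 alpha libraries, 4 of 4 alpha markers had one, and in at least 2 delta libraries 3 of 3 delta markers. Of the 4 alpha markers, however, 3 also had one in at least 2 delta libraries and 2 in at least 2 beta libraries. Of the 3 delta markers, 2 had one in at least 2 alpha libraries and 0 in at least 2 beta libraries. With strong peaks alone, 2 of the 3 delta markers met the criterion in delta libraries. Over all protein-coding genes 56.8% met it in alpha and 54.1% in delta libraries, so these counts alone do not establish cell identity. Of 7 beta markers, 5 had one in at least 2 beta libraries, but alpha cells and delta cells gave the same number, and *Slc2a2* had none in any library. *Ins2* had one only in beta 3. Its 5′ end was that of the whole annotated gene, chr7:142678656-142743381 on the minus strand, and any other start was not examined. The study reported accessible chromatin at the *Ins2* start in beta cells, so this count may miss beta peaks of *Ins2*. At *Ins1*, whose promoter also drives the reporter, the −log10 q was 7.34 in beta 1, 1.82 in beta 2 and 6.39 in beta 3, against 0.736 to 3.42 in the other libraries. At *Sst*, however, the −log10 q was 2.34 in beta 1 against 0.951 in delta 1 and 0.966 in delta 2. At *Gcg* it was 16.8 and 16.5 in the alpha libraries, and delta 2 had a peak with 2.40. Of 12 markers of other cells, 2 (*Ptf1a* and *Col1a1*) had a TSS peak in both alpha libraries and none in at least 2 beta or delta libraries. None of these alpha peaks was strong. The only strong TSS peak among the 12 markers was that of *Kdr* in delta 1, with a −log10 q of 4.14.

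The sequences on which the results turn are printed 5′ to 3′ along the strand of the gene, in GRCm38.p6 coordinates, which are those of mm10. They were searched on both strands for the FOXA letters TGTTTAC, the homeobox letters TAATTA, the NEUROD E-box CAGATG, the MAF core TGCTGA, the CRE letters TGACGTCA and the CTCF core AGGGGGC. Capitals mark a match, and none of these motifs overlapped another. The first sequence is the RefSeq promoter of *Ghsr* up to its start, chr3:27371101-27371350 on the plus strand, over which the 5′ peak of the gene lies. The second is the start of the *Ghsr* coding sequence, chr3:27371797-27372096 on the plus strand, which holds a peak summit of both alpha and both delta libraries.
Ghsr promoter: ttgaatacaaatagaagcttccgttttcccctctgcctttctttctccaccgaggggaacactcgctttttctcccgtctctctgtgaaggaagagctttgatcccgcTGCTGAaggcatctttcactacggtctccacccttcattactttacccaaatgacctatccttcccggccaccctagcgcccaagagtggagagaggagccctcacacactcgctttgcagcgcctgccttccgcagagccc
Ghsr first coding bases: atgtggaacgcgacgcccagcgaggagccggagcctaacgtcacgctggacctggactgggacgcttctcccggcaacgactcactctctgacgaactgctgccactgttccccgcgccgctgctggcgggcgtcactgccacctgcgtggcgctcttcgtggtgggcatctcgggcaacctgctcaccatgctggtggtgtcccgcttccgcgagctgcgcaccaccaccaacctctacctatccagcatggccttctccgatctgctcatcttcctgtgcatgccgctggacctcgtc
The next pair is shown because one was without a peak and the other was called in alpha cells. The *Ghrl* promoter runs from chr6:113719912-113720161 on the minus strand, before the most upstream of 4 RefSeq starts. The *Ghrl* upstream region, chr6:113721169-113721458 on the minus strand, is the 290 bases that the peaks of both alpha libraries share.
Ghrl promoter: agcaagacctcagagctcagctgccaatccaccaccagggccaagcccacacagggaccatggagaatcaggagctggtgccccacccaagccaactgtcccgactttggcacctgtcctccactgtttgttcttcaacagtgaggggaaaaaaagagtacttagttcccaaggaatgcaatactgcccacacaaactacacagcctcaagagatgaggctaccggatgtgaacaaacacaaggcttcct
Ghrl upstream region: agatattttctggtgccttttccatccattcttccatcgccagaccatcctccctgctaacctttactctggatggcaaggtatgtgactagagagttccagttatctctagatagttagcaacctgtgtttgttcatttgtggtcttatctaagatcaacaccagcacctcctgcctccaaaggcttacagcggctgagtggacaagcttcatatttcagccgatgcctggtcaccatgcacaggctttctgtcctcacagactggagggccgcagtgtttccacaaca
The last is the stretch of the last coding exon of *Mboat4* that the peaks of all 7 libraries share, chr8:34124084-34124241 on the plus strand.
Mboat4 last coding exon: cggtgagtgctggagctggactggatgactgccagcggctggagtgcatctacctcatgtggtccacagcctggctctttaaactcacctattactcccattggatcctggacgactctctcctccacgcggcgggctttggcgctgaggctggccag
RefSeq promoters were found for 2 of the 3 genes.

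*Ghsr* (ENSMUSG00000051136.1, the ghrelin receptor) lies at chr3:27371351-27378010 on the plus strand and has 3 exons. It had a peak within 1 kb of its 5′ end in both alpha and both delta libraries, and in beta cells only in beta 1, with a weaker peak. The strongest TSS peak had a −log10 q of 3.30 in alpha 1, 5.60 in alpha 2, 1.10 in beta 1, 6.99 in delta 1 and 8.65 in delta 2. Neither beta 2 nor beta 3 had one, although beta 3 had a peak with a −log10 q of 2.57 just beyond 1 kb. By −log10 q within 1 kb, both delta libraries lay above both alpha libraries, and these above beta 1. How many genes separate in this order was not counted. A strong TSS peak in every alpha and delta library and in no beta library was found for 2.05% of protein-coding genes. The beta libraries also had the fewest strong peaks in general. Enrichment over the local background was 4.50-fold in alpha 1, 5.87-fold in alpha 2, 2.70-fold in beta 1, 6.19-fold in delta 1 and 7.50-fold in delta 2. The order of the cell types was the same by fold enrichment.

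**Figure D1:**
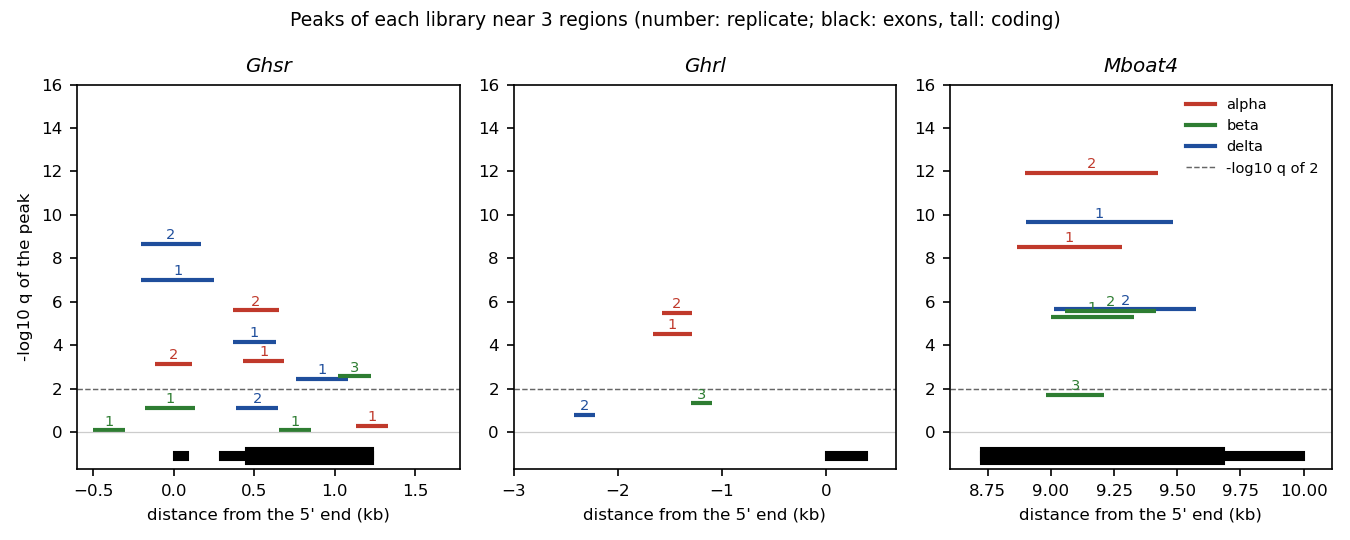
Peaks of each library near the 5′ end of *Ghsr*, upstream of *Ghrl* and over the last exon of *Mboat4*. The x axis is the distance from the 5′ end of the gene in kb and the y axis the −log10 q of a peak. Each bar spans 1 peak, its colour gives the cell type and its number the replicate, the dashed line is a −log10 q of 2, and black boxes are exons, tall where coding. At *Ghsr* the delta bars near 0 reach 6.99 and 8.65, at *Ghrl* the bars above the dashed line are those of the 2 alpha libraries, and at *Mboat4* all 7 libraries have a bar.

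The TSS peaks of *Ghsr* fell into a pair of neighbouring regions. The first, chr3:27371145-27371602, covers the promoter and the first exon, which is untranslated. Its summits lay between −25 and 23 bases from the annotated start, and it was called in alpha 2, beta 1, delta 1 and delta 2, with a −log10 q of 3.15, 1.10, 6.99 and 8.65. In alpha 1 no peak was called there. The second, chr3:27371718-27372683, covers the start of the coding sequence, and was called in every library but beta 2. In alpha 1, alpha 2, delta 1 and delta 2 a summit lay 558, 506, 496 and 523 bases into the gene, within the printed first coding bases. The −log10 q at these summits was 3.30, 5.60, 4.14 and 1.11 in the same order. The beta peaks of that region had their summits further on, at 754 bases in beta 1, with a −log10 q of 0.0774, and at 1114 bases in beta 3, with 2.57. Such later summits were not particular to beta cells. Delta 1 had a further peak at 928 bases, with a −log10 q of 2.45, and alpha 1 had one at 1287 bases, with 0.278. The strongest peak of both alpha libraries thus lay at the coding start, and that of both delta libraries at the promoter.

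Since a −log10 q depends on the depth of its library, peaks were also compared by their percentile by −log10 p within their own list. The strongest TSS peak of *Ghsr* stood at the percentile 74.6 in alpha 1, 78.9 in alpha 2, 90.9 in beta 1, 86.0 in delta 1 and 80.2 in delta 2, with 0 entered for beta 2 and beta 3. Delta lay above alpha, but beta spanned the whole range, from none to the highest value. That highest value belonged to the weak peak of beta 1, with a −log10 q of 1.10. In the list of beta 1, 73.0% of peaks shared a −log10 p of 2.26, so that weak peaks rank high there. Percentiles of beta 1 are therefore not well comparable with those of the other lists. The difference between the 3 cell types did not pass an exact permutation test over all 210 assignments of the 7 libraries (p = 0.219, adjusted p = 1 over all genes). Over all protein-coding genes, 2.19% had a p below 0.05 in this test, and none passed after adjustment. When only strong peaks were kept, *Ghsr* retained its TSS peak in the 4 alpha and delta libraries and in no beta library. The same exact permutation test then gave p = 0.00952, the smallest that it allows, with an adjusted p of 1 over all genes, against 3.05% of genes with a p below 0.05. This pattern, in every alpha and delta library and no beta library, was found for 2.05% of protein-coding genes. The result on strong peaks depended on the limit of 1 kb. Within 3 kb of the 5′ end the peak of beta 3 was counted, at the percentile 71.8, and the exact permutation p was 0.819 with all peaks and 0.105 with strong peaks alone. With the 50000 peaks of lowest p in each list, in which the peak of beta 1 remained, at the percentile 19.5, p was 0.0190 (exact permutation).

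Tests that combined strong peaks with a further restriction were added after these values had been seen. With strong peaks alone, the exact permutation p was 0.0278 within sex and 0.0556 within lane, each the smallest that the restriction allows. Alpha libraries were all sequenced on lane 6 and delta libraries on lane 7, so that alpha and delta cells cannot be told apart from the lanes. Without beta 1, the test on all peaks gave p = 0.0667 (exact permutation), the smallest possible once a beta library is left out. The beta libraries had the fewest strong peaks, and how far this moved the *Ghsr* result was not tested. Alpha against beta or beta against delta can give no p under 0.1, and alpha against delta none under 0.333, so the apparent order of delta over alpha cannot be resolved.

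The whole window of *Ghsr* held 2 peaks in alpha 1, 2 in alpha 2, 11 in beta 1, 0 in beta 2, 5 in beta 3, 3 in delta 1 and 3 in delta 2. The medians over all protein-coding genes were 4, 4, 11, 3, 4, 4 and 3 in the same order, so that *Ghsr* lay below them in both alpha libraries, beta 2 and delta 1, at them in beta 1 and delta 2, and above them in beta 3. The 3 cell types overlapped, with 5.33 ± 5.51 (SD, n = 3) in beta cells, and their difference did not pass the test (exact permutation p = 0.724). Of strong peaks there were 1, 2, 0, 0, 1, 3 and 1 peaks in the same order, and all 8 lay between the promoter and the first coding exon. All 11 peaks of beta 1 were below that threshold.

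A pair of regions downstream of *Ghsr*, both between genes, were called in beta cells. The first, chr3:27381965-27382241, was called in beta 1 and beta 3 and in no other library, with a −log10 q of 0.0774 and 1.43. The second, chr3:27384864-27385197, was called in beta 1, beta 3 and delta 2, with 0.0774, 1.15 and 1.93. None of these peaks reached a −log10 q of 2, and 44.0% and 48.0% of the bases around their summits were soft-masked as repeats in the reference, against a median of 9.33% over all consensus regions.

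**Figure D2:**
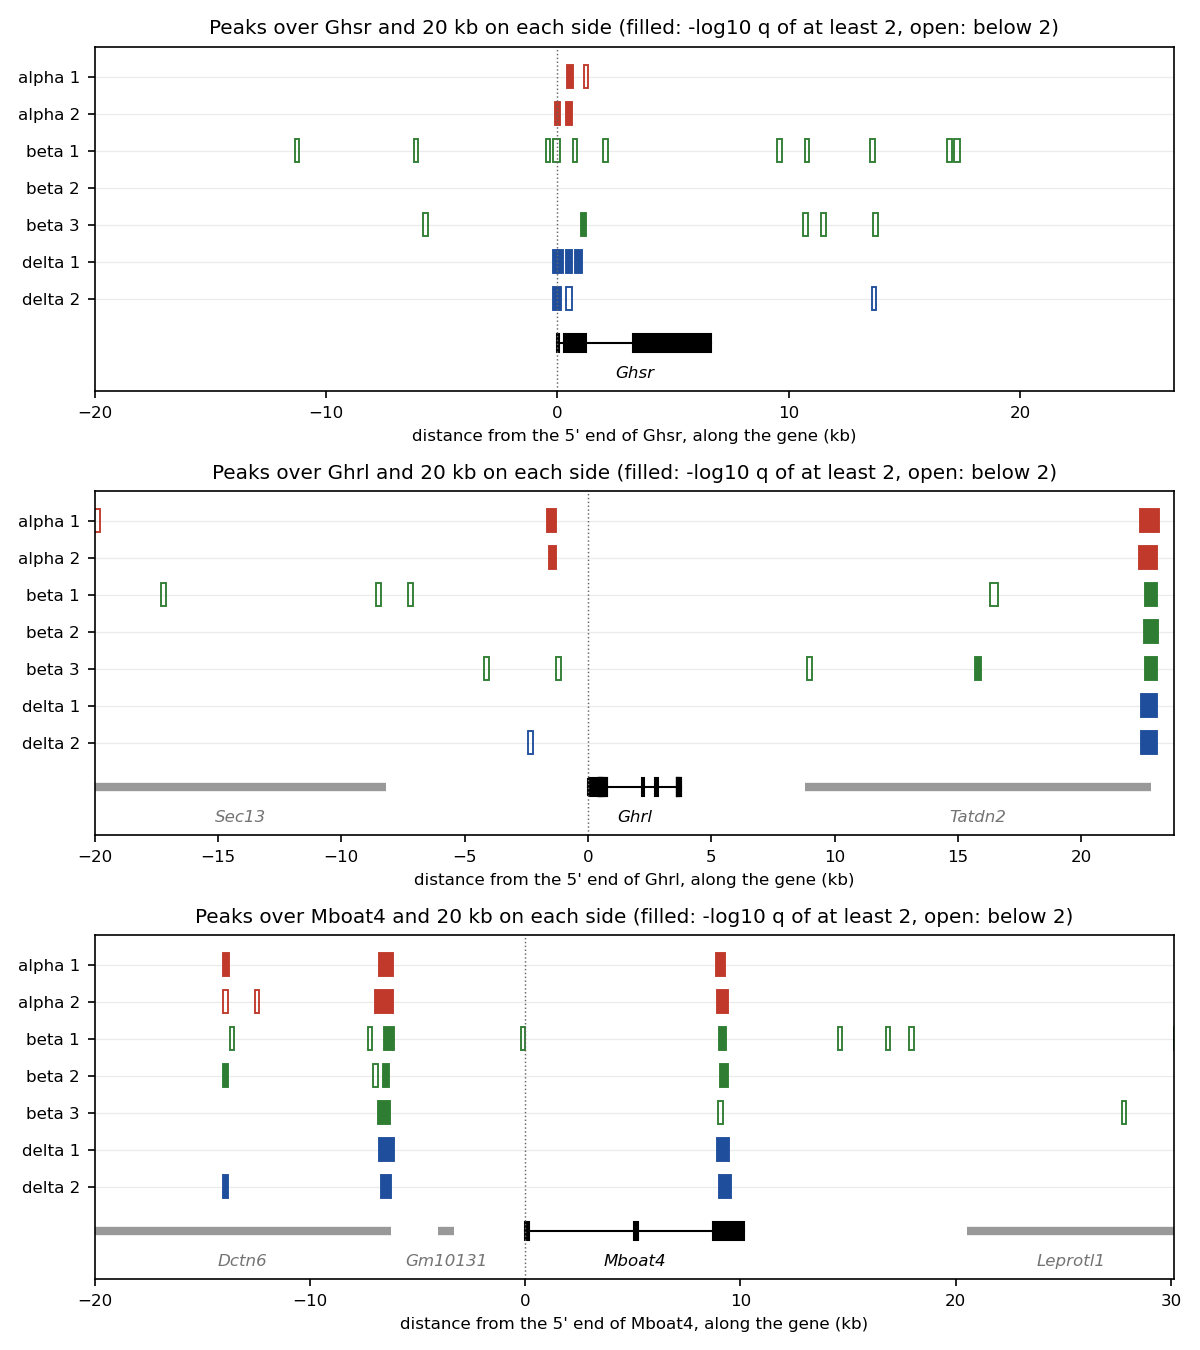
Peaks of the 7 libraries over *Ghsr*, *Ghrl* and *Mboat4* and 20 kb on each side. The x axis is the distance from the 5′ end of the gene in kb, along the gene, and each row is 1 library, coloured by cell type. Filled boxes are strong peaks (−log10 q from 2 up) and open boxes weaker ones, black marks the exons of the gene and grey its protein-coding neighbours. Around *Ghsr* the filled boxes cluster at the 5′ end, around *Ghrl* the column filled in all 7 libraries is the promoter of *Tatdn2*, and around *Mboat4* 2 columns run through all 7 libraries.

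*Ghrl* (ENSMUSG00000064177.8, the precursor of ghrelin) lies at chr6:113716119-113719880 on the minus strand. None of the 7 libraries had a peak at its own promoter or anywhere over the gene. No TSS peak in any library was found for 17.3% of protein-coding genes, and 38.1% had no strong one. No comparison of cell types could be made at this promoter (exact permutation p = 1), and no limit of detection can be given, because reads outside peaks are not in the lists.

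Upstream of *Ghrl*, however, both alpha libraries shared a peak. It was called in alpha 1 with a −log10 q of 4.52, 5.25-fold enrichment and a summit at −1409 bases from the start, and in alpha 2 with 5.48, 5.80-fold and −1427 bases. The summits of these peaks were 18 bases apart. Beta 3 had a peak with a −log10 q of 1.33 that touched them by 5 and 10 bases, with its summit at −1245 bases. Beta 1, beta 2, delta 1 and delta 2 had none there, so the alpha peaks were the strongest. Of all regions called in at least 2 libraries, 5.38% had a peak in both alpha libraries and in no delta library. With strong peaks alone, 14.9% had one in both alpha and no beta library, and 8.32% in both alpha and no delta library. A delta 2 peak with a −log10 q of 0.795 lay at −2301 bases, outside the region. The merged region, chr6:113720974-113721540, lies between genes. Within 3 kb of the start, the strongest peak stood at the percentile 79.7 in alpha 1, 78.1 in alpha 2, 22.9 in beta 3 and 8.61 in delta 2, with none in the others. The difference between cell types did not pass the exact permutation test (p = 0.0952).

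The window of *Ghrl* held 3 and 2 peaks in the alpha, 5, 1 and 5 in the beta, and 1 and 2 in the delta libraries. These ranges overlapped, and the difference between cell types did not pass the test (exact permutation p = 0.448). One peak in each library lay at the promoter of *Tatdn2*, a neighbouring gene of the TatD DNase family. There chr6:113696749-113697546 was called in all 7 libraries with a −log10 q of 14.3 to 63.8. Further peaks lay within *Tatdn2* in beta 1 and beta 3, and within the neighbouring gene *Sec13* in beta 1 and alpha 1. Without the *Tatdn2* promoter region, the single peak of beta 2 and that of delta 1 were gone. Among consensus regions, those called in at least 2 libraries, 13.3% were called in all 7.

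*Mboat4* (ENSMUSG00000071113.4, ghrelin O-acyltransferase) lies at chr8:34115030-34125182 on the plus strand. At its 5′ end only beta 1 had a peak, with a −log10 q of 0.0774 and a summit at −108 bases from the start (exact permutation p = 1). The gene was instead open at its other end, in the last coding exon, where chr8:34123896-34124605 was called in all 7 libraries. There the −log10 q was 8.53 in alpha 1, 11.9 in alpha 2, 5.29 in beta 1, 5.57 in beta 2, 1.72 in beta 3, 9.65 in delta 1 and 5.65 in delta 2. The alpha and delta libraries were all above the beta libraries, though delta 2 and beta 2 were close, while alpha and delta overlapped. The percentiles were 87.8 and 88.3 in the alpha, 98.1, 88.0 and 62.1 in the beta, and 89.1 and 70.9 in the delta libraries. By this measure all 3 cell types overlapped, also with beta 1 set aside, in whose list weak peaks rank high. Summits lay between 9089 and 9421 bases from the start, and in 5 of the 7 libraries within the printed stretch.

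The window of *Mboat4* held 3 and 4 peaks in the alpha, 9, 4 and 3 in the beta, and 2 and 3 in the delta libraries. The cell types overlapped (exact permutation p = 0.619), and every library held 1 to 3 strong peaks. The promoter of *Dctn6*, a dynactin subunit gene on the other strand, gave a further region called in all 7 libraries, chr8:34107974-34108938, with a −log10 q of 4.81 to 15.0. An intronic region of *Dctn6*, chr8:34100987-34101249, was called in alpha 1, alpha 2, beta 2 and delta 2, with a −log10 q of 3.29, 0.182, 3.04 and 4.59, and thus in all 3 cell types. At the far edge of the window, in an intron of *Leprotl1*, chr8:34145166-34145563 was called in beta 1 with 2.56 and in beta 2, whose peak began outside the window.

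**Figure D3:**
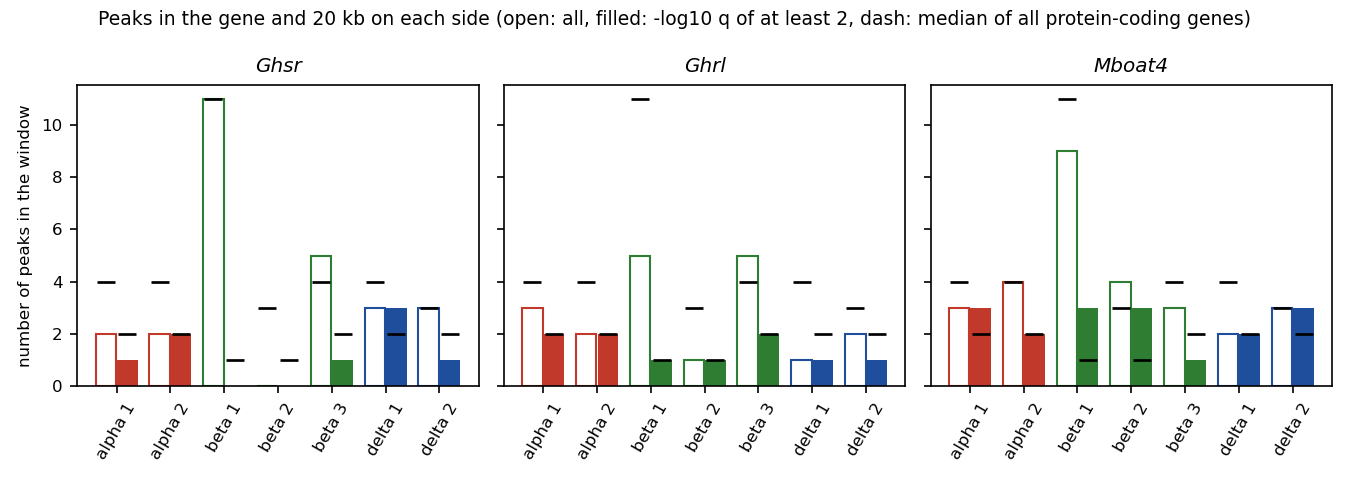
Number of peaks in each gene and the 20 kb on either side, by library. Open bars count all peaks and filled bars strong ones (−log10 q from 2 up), coloured by cell type, and each dash is the median over all protein-coding genes in that library. Open bars reach 11, 5 and 9 in beta 1, whose filled bars are at 0, 1 and 3, and beta 2 has no bar at *Ghsr*.

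Peaks that overlapped by at least 1 base were merged across libraries, which gave 36 regions in the 3 windows. Of these, 26 were called in 1 library, 17 of them in beta 1 alone, and 10 in at least 2. A region was called selective where at least 2 libraries of 1 cell type and none of another had a peak. Of the 10 regions, 0 were selective for alpha over beta (5.41% of all consensus regions), 1 for alpha over delta (5.38%), 3 for beta over alpha (14.8%), 2 for beta over delta (13.2%), 0 for delta over alpha (5.13%) and 0 for delta over beta (4.85%). The alpha region was that upstream of *Ghrl*. The region in *Leprotl1* and the first of the pair downstream of *Ghsr* were selective for beta over alpha and over delta, and the second of the pair for beta over alpha. Without beta 1 no region was selective for beta cells.

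With strong peaks alone the windows held 10 regions, 8 of them in at least 2 libraries, and the counts changed. The region upstream of *Ghrl* was then selective for alpha over both beta and delta, and the coding start of *Ghsr* for alpha over beta, which made 2 regions for alpha over beta against a background of 14.9% and 1 for alpha over delta against 8.32%. This coding start was chr3:27371718-27372038, where delta 1 also had a strong peak. The strong beta 3 peak lay in a separate region further on, chr3:27372109-27372575, together with a delta 1 peak. The call for alpha over beta thus rests on this split. The promoter region of *Ghsr* was selective for delta over beta, the single region in that direction, against 13.5%. None was selective for beta over alpha (5.63%), for beta over delta (4.15%) or for delta over alpha (7.9%). These windows hold too few regions for a test.

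Of the 6 motifs, the printed *Ghsr* promoter held the MAF core once, and the other printed sequences held none. The MAF core was found in 25.6% of the 300-base windows around the summits of all consensus regions and in 19.5% of RefSeq promoters of that length. Among such windows of the 10 named regions, that of the second *Ghsr* region, chr3:27372093-27372392, which lies further into the first coding exon than the alpha and delta summits near the coding start, held the NEUROD E-box and the second region downstream of *Ghsr* the homeobox letters, which 25.1% and 8.06% of all windows held. The FOXA, CRE and CTCF letters, found in 6.68%, 0.636% and 5.31% of all windows, were in none of the 10. The printed *Ghsr* coding sequence was 65.0% G and C and the region upstream of *Ghrl* 48.3%, against a median of 47.0% over all windows.

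The 3 genes with the TSS percentiles nearest to those of *Ghsr* over the 7 libraries were *Naa25* (chr5:121397936-121444378), *Hrasls5* (chr19:7612541-7639642) and *Rph3al* (chr11:75830999-75938429). Their Euclidean distances were 7.43, 7.51 and 9.27 percentile points. All 3 shared with *Ghsr* a percentile of 90.9 in beta 1 and no TSS peak in beta 2 and beta 3. Among the delta markers, *Rbp4*, a retinol carrier, and *Hhex*, a homeobox factor of delta cells, had strong TSS peaks in the same 4 alpha and delta libraries, and none in a beta library. *Sst*, the third delta marker, did not share this pattern, since its single strong TSS peak was that of beta 1. The alpha marker *Ttr* did share it, with strong TSS peaks in both alpha and both delta libraries and in no beta library. The pattern was thus not particular to delta markers.

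The other genes of the pathway were a list of 17. A TSS peak in at least 2 libraries was found for 10 of them among the alpha, 9 among the beta and 9 among the delta libraries, and for 9 among the beta libraries also without beta 1. Of the 3 ghrelin genes, 1, 0 and 1 met the same criterion, all through *Ghsr*, while over all protein-coding genes the shares were 56.8%, 56.1% and 54.1%. *Pcsk1*, whose prohormone convertase cleaves proghrelin, had a TSS peak in all 7 libraries, as did *Lypla1* and *Bche*, whose enzymes can remove the acyl group. Of the signalling genes, the G proteins *Gnaq* and *Gna11* and the phospholipases *Plcb1* and *Plcb4* had a strong TSS peak in all 7 libraries, whereas *Plcb2* and *Plcb3* had no TSS peak in any. *Leap2*, the gene of a peptide antagonist of the receptor, had none either. Among the receptors of the same family, *Gpr39* was open in all 7 libraries, with a −log10 q of 20.5 to 75.5. *Ntsr2* had a TSS peak in alpha 1, alpha 2 and beta 2, *Ntsr1* in alpha 1 and beta 1, *Nmur1* in beta 1 and *Nmur2* in beta 3. *Notum* had one in alpha 1 and delta 1, with a −log10 q of 0.278 and 0.199.

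*Mrap2*, an accessory protein of the receptor, was open in all 7 libraries. Its TSS peak stood at the percentile 95.0 in alpha 1, 93.6 in alpha 2, 99.6 in beta 1, 95.4 in beta 2, 97.5 in beta 3, 87.9 in delta 1 and 62.2 in delta 2. Both delta libraries were lowest, and the 3 cell types differed by the exact permutation test (p = 0.0190), which did not hold after adjustment over all genes (adjusted p = 1). It was the only 1 of the 17 genes with a p below 0.05, against 2.19% of all protein-coding genes in the same test. The test of these genes was added after the values had been seen.

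**Figure D4:**
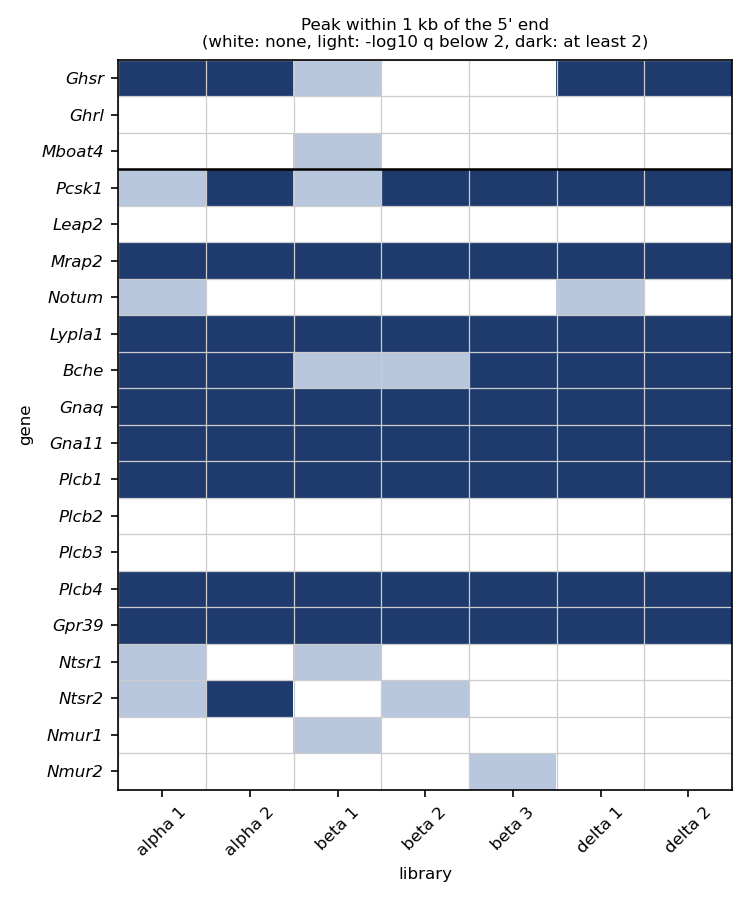
TSS peaks of the 3 ghrelin genes, above the black line, and of the 17 other genes of the pathway. Each column is a library and each row a gene, white is no peak, light a peak with a −log10 q below 2 and dark one of at least 2. The *Ghsr* row is dark in both alpha and both delta libraries, the *Ghrl* row is white throughout, and the *Mboat4* row is light in beta 1 only.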

How the data were processed

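Peaks of 7 ATAC-Seq libraries were analysed (2 alpha, 3 beta and 2 delta). Cell type and replicate came from the labels, sex from the study's supplementary quality table and lane from the deposited list names. The labels give a median of 20000 cells per sample and single-end 50 bp reads. Per the labels and methods, the authors used FastQC and Trimmomatic on the reads, Bowtie2 to align them to mm10 without mitochondrial DNA, and Picard for duplicates. Regions of the blacklist were left out, and MACS2 was run per library. Versions and the MACS2 threshold are not given in the sources used here. The authors' MACS2 gave the −log10 p and −log10 q of each deposited peak, its fold enrichment (the ratio of summit signal to local background), its score and its summit. The study tested reads per region through DiffBind, and peak lists hold no such reads, so that test was not repeated.

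Rows that repeated an interval were counted once, with the strongest summit. Gene positions were those of GENCODE vM21. Peaks were ranked by −log10 p within their list, ties taking the middle rank. Cell types were compared by two-sided exact permutation tests of the sum of squares between groups, over 210 assignments of the libraries, with Benjamini-Hochberg adjustment over 21938 genes for TSS peaks. Such p-values measure only the spread between these libraries, and the tests treat libraries that may share animals as independent. The members and gene lists were chosen with earlier results of these data known. The text names the 3 members, the 17 pathway genes, the genes whose 5′ end lies in a window, the 3 genes nearest to *Ghsr*, regions of at least 3 libraries and selective regions. Of 8 neighbours with a 5′ end in a window, *Tatdn2* and *Dctn6* had a peak within 1 kb of it in all 7 libraries, and 6 (*Mir7042*, *Gm26982*, *Gm44033*, *Gm44053*, *Gm10131* and *Gm39158*) in none. Alpha markers were *Gcg*, *Irx1*, *Irx2* and *Ttr*, beta markers *Ins1*, *Ins2*, *Mafa*, *Nkx6-1*, *Pdx1*, *Ucn3* and *Slc2a2*, delta markers *Sst*, *Hhex* and *Rbp4*, and markers of other cells *Ppy*, *Cpa1*, *Cela1*, *Ptf1a*, *Krt19*, *Sox9*, *Pecam1*, *Kdr*, *Ptprc*, *Cd68*, *Acta2* and *Col1a1*. A TSS peak in at least 2 beta libraries was found for 2 of the 4 alpha and 0 of the 3 delta markers, in at least 2 alpha libraries for 2 delta markers, and in at least 2 delta libraries for 3 alpha markers. Some items are not reported here.

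The settings varied were strong peaks alone (−log10 q from 2 up), the first 50000 peaks by p, windows of 10 and 50 kb, 3 kb around the 5′ end, any transcript start, ranking by fold enrichment, coverage of at least 0.5 of a region, permutation within replicate number, sex or lane, and each library left out. The work was done in Python 3.11.15 (pandas 2.3.3, numpy 2.4.6, statsmodels 0.14.6, scipy 1.17.1, matplotlib 3.10.9). None of the 834695 merged regions differed from those of bedtools 2.31.1. On simulated lists, all 400 TSS peaks made per cell type were found in each library, and at least 389 of 400 selective regions in each direction.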

Additional observations from a re-analysis of the deposited data

How the results depend on the processing

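The 6 permutation tests were repeated under 90 other settings, many of which could not give p below 0.05, and 88 left p on the same side of 0.05. The other 2 were for *Ghsr* TSS peaks, with exact permutation p = 0.00952 with strong peaks alone and 0.0190 with 50000 peaks. In tests added after seeing the data, the former gave 0.0278 within sex and 0.0556 within lane or within replicate number, and, by exact permutation, 0.0333 without alpha 1, alpha 2 or delta 1, 0.0167 without delta 2 and 0.0667 without any 1 of the beta libraries. Within 3 kb it gave 0.105 (exact permutation). The smallest possible p of this exact permutation test was 0.0278 within sex, 0.0556 within lane or replicate number, and 0.0667 without a beta library. Within 1 kb the TSS value of *Ghrl* was 0 in every library, and that of *Mboat4* in every library but beta 1. Tests of such values could not fall below 0.05, so the count of 88 overstates stability. With all peaks, the exact permutation p with a library left out ranged from 0.0667 to 0.867 for the *Ghsr* window, 0.133 to 0.867 for *Ghrl*, 0.267 to 0.850 for *Mboat4* and 0.0667 to 0.867 for the *Ghsr* TSS. Deviations of libraries with the same replicate number correlated by −0.0519 to 0.146. This cannot show whether libraries share animals, since pools were by sex and alpha 1 was female but beta 1 male. With the replicate block, p was 0.722, 0.444 and 0.778 for the windows of *Ghsr*, *Ghrl* and *Mboat4*, 0.278 for the *Ghsr* TSS, and 1 for those of *Ghrl* and *Mboat4* (exact permutation).

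Of 52 alternative counts of selective regions, 20 moved by over 1.5 times. With strong peaks alone there were 2 for alpha over beta, 0 for beta over alpha, 0 for beta over delta and 1 for delta over beta. With 50000 peaks there were 2, 1 and 1 for the first 3 of these, and with 0.5 coverage 1 for alpha over beta. With a library left out, counts ranged from 0 to 1 for alpha over beta, 1 to 2 for alpha over delta, 0 to 4 for beta over alpha, 0 to 3 for beta over delta, 0 to 1 for delta over alpha and 0 to 2 for delta over beta. Without beta 1 they were 0 for beta over alpha and over delta, and 2 for delta over beta. No count was made where the open cell type was left with 1 library. The cause was not tested. Depth limits every absence, since a peak that was not called has no measured level.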
